A study of Homo sapiens with 12 samples.

Results

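Distal H3K4me3 regions are stretches of chromatin that carried a called H3K4me3 peak far from any annotated transcription start. They were chosen by pooling the peak lists of 5 H3K4me3 CUT&RUN libraries on chromosomes 1 to 22 and X and merging touching or overlapping peaks into 30384 regions. A merged region was kept when it lay over 5 kb from every annotated transcript 5′ end (GENCODE release 44 on GRCh37, all gene types), held a peak in at least 2 of the 5 lists, and overlapped no peak of the 6 IgG lists. This gave 460 regions of 15223 recurrent, IgG-free regions in all, 3.02%. The members were thus selected on the presence of peaks, so their recurrence and their absence from the IgG lists are descriptions, not findings. They are numbered D001 to D460, first by the number of lists with a peak and then by height within their lists.

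The libraries came from BON1, a human pancreatic neuroendocrine tumor cell line. HA-Bcl-xL cells, labelled BON1/TGL/HA-Bcl-xL, overexpressed a tagged form of the anti-apoptotic protein Bcl-xL, and the control cells are labelled BON1/TGL/pQ. No label says what TGL and pQ stand for. Both lines were grown with puromycin, and 500000 cells were used per condition. CUT&RUN uses an antibody to tether a nuclease to chromatin, and the released fragments are sequenced. A rabbit anti-mouse IgG gave the background. Lists of 11 libraries were used. With the H3K4me3 antibody these were replicates 1, 2 and 3 of control and 2 and 3 of HA-Bcl-xL cells, and per-library values are given in that order throughout. With IgG all 3 replicates of each line were used. Replicate 1 of HA-Bcl-xL cells with H3K4me3 was not analysed here. Nothing in the labels says that replicates were separate cultures, so p-values measure only the spread between these samples, which may be technical. The labels also do not say whether either line was a single clone.

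H3K4me3 is written by the SET1 and MLL methyltransferase complexes and is read as a mark of active or poised promoters. The SET1 complexes are drawn to unmethylated CpG dinucleotides through the CXXC1 protein, and CpG-rich promoters usually carry the mark even at low transcription. Away from annotated starts the mark is known at unannotated promoters, at some strong enhancers, beside genes read by RNA polymerase III such as tRNA genes, and over transcribed repeats. Chromatin between genes otherwise carries little of it.

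A few sequences show how unlike each other the members are. The first set holds summit windows of 300 bp from regions that had a peak in all 5 lists and ranked highest by −log10 p within each list. It is read on the plus strand of GRCh37, 5′ to 3′, with every CpG dinucleotide in capitals. D001 (window chr4:189972497-189972796) is intergenic, D002 (chrX:115004574-115004873) lies in introns of the lncRNA genes DANT1 and DANT2, and D003 (chr5:69931108-69931407) is intergenic. D006 (chr1:226288252-226288551) is intergenic, 13614 bp from LINC01703.
D001: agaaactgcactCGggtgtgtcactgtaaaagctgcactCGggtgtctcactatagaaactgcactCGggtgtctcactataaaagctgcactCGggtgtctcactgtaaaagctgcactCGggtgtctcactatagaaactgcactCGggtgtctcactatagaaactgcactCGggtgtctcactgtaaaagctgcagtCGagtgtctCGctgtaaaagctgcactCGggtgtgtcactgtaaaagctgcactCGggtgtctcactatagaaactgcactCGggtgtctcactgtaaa
D002: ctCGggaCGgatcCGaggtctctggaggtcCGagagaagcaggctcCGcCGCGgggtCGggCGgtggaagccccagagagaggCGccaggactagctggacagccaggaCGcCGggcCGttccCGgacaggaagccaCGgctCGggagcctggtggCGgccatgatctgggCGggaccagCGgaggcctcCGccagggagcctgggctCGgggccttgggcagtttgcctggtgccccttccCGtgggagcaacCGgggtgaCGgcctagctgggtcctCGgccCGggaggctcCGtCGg
D003: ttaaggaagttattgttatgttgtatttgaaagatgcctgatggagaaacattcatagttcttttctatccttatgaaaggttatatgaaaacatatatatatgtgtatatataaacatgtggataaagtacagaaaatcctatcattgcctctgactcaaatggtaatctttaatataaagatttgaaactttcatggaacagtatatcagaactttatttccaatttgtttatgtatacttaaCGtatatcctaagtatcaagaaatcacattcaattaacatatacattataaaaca
D006: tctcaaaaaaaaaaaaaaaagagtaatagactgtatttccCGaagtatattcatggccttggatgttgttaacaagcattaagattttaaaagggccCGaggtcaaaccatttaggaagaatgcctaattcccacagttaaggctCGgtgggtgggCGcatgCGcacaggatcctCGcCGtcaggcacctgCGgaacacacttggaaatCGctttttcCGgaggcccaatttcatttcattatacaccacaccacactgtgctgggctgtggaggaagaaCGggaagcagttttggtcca
D001 is a tandem repeat: shifted by 81 bases, 90.4% of its letters match themselves. D002 is CpG-rich, with 28 CpGs, whereas D003 has 1 CpG and a GC content of 26%. D006 has 11 CpGs and holds the letters GCGCATGC of the NRF1 motif. The shift search was added after the letters had been seen.

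The distal share of each H3K4me3 list was small and that of each IgG list was large. Before any filter on recurrence, 6.88, 8.21 and 8.92% of peaks in the 3 control libraries and 9.08 and 10.2% in the 2 HA-Bcl-xL libraries lay over 5 kb from every start. In IgG lists the same share was 64.8, 69.4 and 68.9% in control and 67.6, 62.8 and 63.6% in HA-Bcl-xL libraries. Every IgG list was higher than every H3K4me3 list, and the mean difference was -57.5 percentage points (5 against 6 libraries, two-sided exact permutation p = 0.00433, the smallest this design gives, and 0.0303 after Benjamini-Hochberg adjustment over 7 tests). The p of 2 of the 7, on peak presence between the lines, is not printed because the rule used peak presence, but both were kept in the adjustment. Within control libraries the difference was -59.7 points (exact permutation p = 0.1) and within HA-Bcl-xL libraries -55 points (exact permutation p = 0.2), in both cases the smallest p possible. For comparison, 73% of the known bases of these chromosomes are over 5 kb from a start.

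Of 5093 merged H3K4me3 regions over 5 kb from a start, 505 were found in at least 2 lists, 9.92%. Within 1 kb of a start, 13904 of 22194 regions were found in at least 2 lists, 62.6%. An IgG peak overlapped 8.91% of the recurrent distal regions and 0.374% of the recurrent regions near starts. The 13852 recurrent, IgG-free regions within 1 kb of a start are called start regions from here on. Among the 460 distal members, 215 were in exactly 2 lists, 102 in 3, 62 in 4 and 81 in all 5. A peak in all 5 lists was thus found for 17.6% of members and 33.3% of start regions. The 3 members just inside the 5 kb limit were D126, D039 and D360, at 5064, 5103 and 5119 bp, with means of 10.25, 12 and 8.5 fragments at the summit. The 3 regions just outside it lay at 4970, 4968 and 4929 bp and had means of 9.67, 11 and 7.5 fragments.

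Most members were intergenic. By the annotation 265 (57.6%) overlapped no gene, 161 (35%) lay in introns and 34 (7.39%) touched an exon, of which 15 touched coding sequence, 15 only a UTR and 4 only non-coding exons. Inside a protein-coding gene there were 138 members, 30%. The median distance to the nearest start of any gene type was 13083 bp and to the nearest protein-coding start 20483 bp. A distance over 10 kb was found for 282 members, over 50 kb for 40 and over 100 kb for 3. The nearest start region with its own recurrent H3K4me3 was a median of 47281 bp away. An IgG peak lay within 1 kb of 2 members and within 5 kb of 13.

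Facts of all libraries are these. The lists held 10237 to 17687 H3K4me3 peaks on these chromosomes. The IgG lists held 1694, 1665 and 2106 peaks in control but 262, 261 and 239 in HA-Bcl-xL libraries. They give no read totals, and depth was read from the lowest background each list implies, 0.0478 to 0.0705 fragments per base in H3K4me3 and 0.0333 to 0.0897 in IgG libraries. Promoter peaks of neuroendocrine markers were present in at least 2 H3K4me3 lists for 6 of 10 genes, with CHGB, SCG2 and SCG3 in all 5 lists, CHGA and ENO2 in 1 and INSM1 and NCAM1 in none. Of 4 markers of fibroblasts, blood and endothelium, 0 reached 2 lists and COL1A1 had a promoter peak in 1. A further planned endothelial marker, PECAM1, is not among those counted.

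Distal members were lower and slightly narrower than start regions in every library. The median peak at a distal member had 8, 8 and 7 fragments at the summit in the 3 control libraries and 8 and 8 in the 2 HA-Bcl-xL libraries. At start regions the medians were 13, 11 and 10 in control cells and 12 and 12 in the HA-Bcl-xL libraries. The mean log2 ratio of distal to start was -0.57, a ratio of 0.674, lower in 5 of 5 libraries (two-sided exact sign-flip permutation p = 0.0625, the smallest for 5 libraries, 0.0875 after Benjamini-Hochberg adjustment over 7 tests). Fragment numbers are whole numbers solved from the deposited fold and −log10 p. They were not scaled for depth, here or where single regions are compared between the lines.

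Median peak widths differed less. They were 137, 126 and 114 bp at distal members against 147, 134 and 121 bp at start regions in control replicates 1 to 3. In HA-Bcl-xL replicates 2 and 3 they were 123 and 117.5 bp against 131 and 128 bp. The mean log2 ratio was -0.10 (exact sign-flip permutation p = 0.0625, adjusted 0.0875), lower in 5 of 5 libraries, and was -0.01 among regions in at least 3 lists (exact sign-flip permutation p = 0.688). It was -0.02 with only peaks of −log10 q of at least 5 (exact p = 0.438) and -0.04 with equal list lengths (exact p = 0.25).

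**Figure D1:**
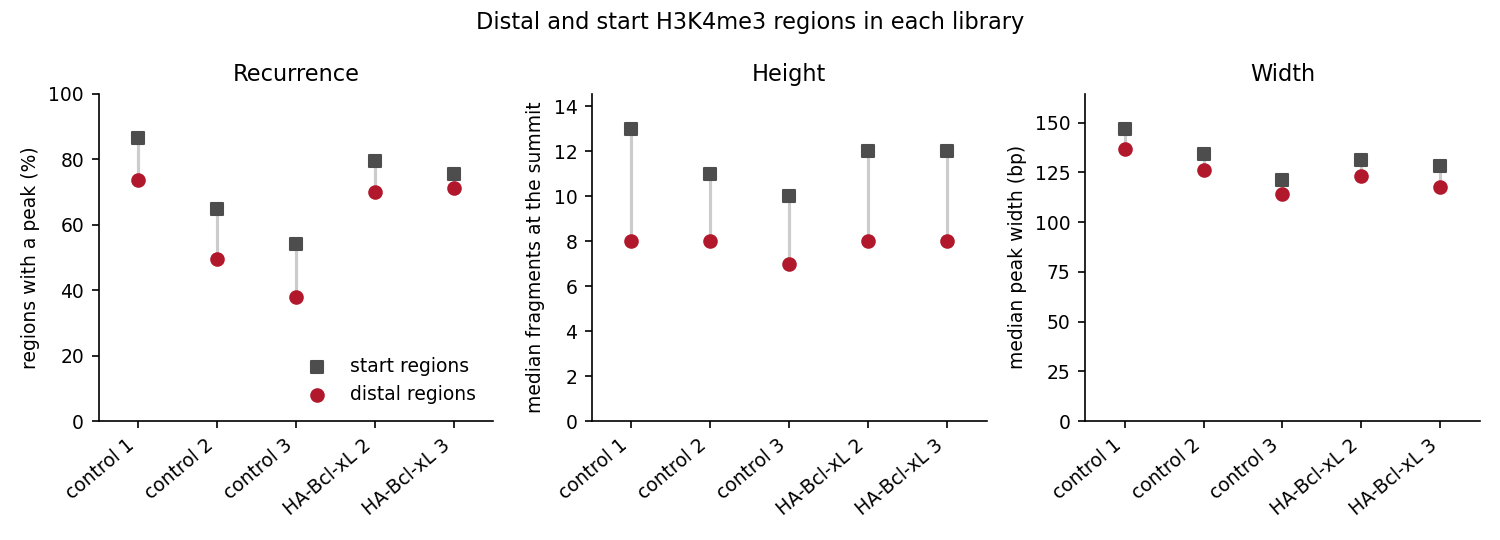
Each panel shows the 5 H3K4me3 libraries on the x axis, with 1 point for distal regions (red circles) and 1 for start regions (grey squares) per library. The y axes give the percent of regions with a peak, the median number of fragments at the summit and the median peak width in bp, and the distal point lies under the start point in each library of each panel.

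Fewer distal members than start regions had the base composition of a CpG island. CpG islands are stretches rich in G, C and the CpG dinucleotide, and many promoters lie in one. With the usual limits of at least 50% GC and a CpG observed to expected ratio of at least 0.6 in the 300 bp summit window, 155 members (33.7%) and 7776 start regions (56.1%) were CpG-rich. GC content under 40% was found for 89 members (19.3%) and 9.28% of start regions. The median window had 10.5 CpGs at members and 17 at start regions. The 911 recurrent regions between 1 and 5 kb from a start were less CpG-rich than either, with 17% CpG-rich and 34.9% under 40% GC. Their median height was 11.7 fragments, against 7.5 at members and 11.2 at start regions.

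The same difference stood in each library. The median GC content of distal peaks was 51.7, 53.7 and 51% in the 3 control libraries and 53 and 52.5% in the 2 HA-Bcl-xL libraries, and that of start peaks was 57.3 or 57.7% in each. The mean difference was -5.17 percentage points (exact sign-flip permutation p = 0.0625, adjusted 0.0875), lower in 5 of 5 libraries. The median CpG observed to expected ratio was 0.552 to 0.616 at distal and 0.703 to 0.707 at start peaks, a mean difference of -0.128 with the same p. Libraries share regions and the genome, so these tests describe the lists. Without the members of the chromosome 5 and chromosome 6 clusters described further on, an alternative chosen after seeing the data, the GC difference was -2.97 points.

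**Figure D2:**
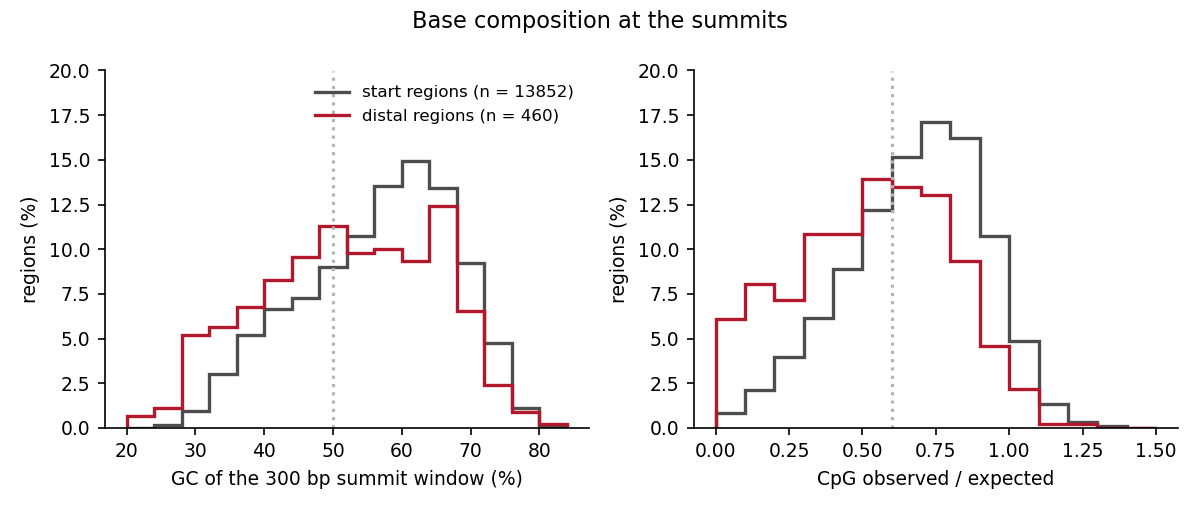
The x axes give GC content in percent and the CpG observed to expected ratio of the 300 bp summit window, and the y axes the percent of regions in each bin, for 460 distal (red) and 13852 start regions (grey). Dotted lines mark the limits of 50% GC and a ratio of 0.6, and the distal curve is shifted to the left in both panels.

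Short factor motifs were counted in the same windows on both strands, as plain letter matches. The GC box GGGCGG, bound by SP factors, was present in 39.1% of members and 46.6% of start regions, and the ETS motif CCGGAAG in 5.43% and 12.7%. The YY1 motif AAGATGGCG was present in 0.217% of members and 2.35% of start regions. Among CpG-rich windows alone, the GC box stood in 63.9% of members and 65.2% of start regions and the ETS motif in 9.68% and 18.8%. Among the other windows the GC box had the opposite order, 26.6% of members and 22.8% of start regions.

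Other motifs were found at a larger share of members. The AP-1 motif TGANTCA was present in 10.9% of members and 5.82% of start regions, the forkhead motif TGTTTAC in 7.39% and 3.42%, the homeobox motif TAATTA in 7.83% and 4.19%, and the letters TATAAA in 16.7% and 10.2%. The NFY motif CCAATCA had the opposite order, 4.78% against 7.07%, and the NRF1 motif was in 3.48% and 3.27%. Among windows that were not CpG-rich the AP-1 motif was in 13.4% of members and 8.84% of start regions, the forkhead motif in 9.18% and 4.95%, and the GATA motif AGATAA in 12.1% and 14.8%. The CTCF core CCACNAGG differed less, 7.17% against 5.21%. In all, 15 motifs were searched, the letters can overlap one another, and a match is a description of these windows only. Near-identical windows were counted separately, such as D003 and D008, which both hold the AP-1 motif and TATAAA. Shares without such repeats were not computed.

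Near-identical copies elsewhere in the genome were more frequent among members than among start regions. A copy was counted when at least 80% of the 300 bp window aligned elsewhere with at least 95% identity. Such a copy was found for 70 members (15.2%) and 533 start regions (3.85%). Short reads cannot always be told apart between such copies, so the position of these peaks is uncertain. Members without such a copy are called single-copy. Shorter repeats were not searched for and the tandem repeat D001 is among them, so the name does not mean that reads there are uniquely placed. Of the 70 members, 32 had a copy within 1 kb of an annotated start, 31 a copy that was another member, 51 a copy with an H3K4me3 peak and 1 a copy with an IgG peak. Exactly 1 other copy was found for 17 members, and at least 5 for 40. Peaks at members with copies had median fragments of 11, 10 and 10 in control cells and 10 and 10 in HA-Bcl-xL cells, against 8, 8 and 6.5 and 8 and 8 at single-copy members. Members with copies were in all 5 lists in 22 of 70 cases (31.4%), and single-copy members in 59 of 390 cases (15.1%).

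A group of members lay in a duplicated part of chromosome 5. Between chr5:69005442-70016585 there were 16 members, and all 16 had 7 to 9 other near-identical copies. The nearest annotated starts belonged to the pseudogenes GUSBP13, GUSBP14, GUSBP15, GUSBP16 and GTF2H2B and to 1 lncRNA. GUSBP genes are pseudogene copies of GUSB, which encodes beta-glucuronidase, and GTF2H2B is a copy of a gene for a subunit of the transcription factor TFIIH. Of the 16 members 9 were in all 5 lists. Their GC content was low, a median of 31.3% with a range of 22.7 to 39.3%, so none was CpG-rich.

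Of the 16 windows of this group, 14 matched another of them with 97.3 to 100% identity, and D010 was not among the 14. The window of D003, printed above, matched D008, D294, D322 and D428 with 99.7% identity over 300 aligned bases, in the opposite orientation for D008 and D294. D003 itself (chr5:69931037-69931338) had 42, 28 and 31 fragments at the summit in the 3 control libraries and 28 and 27 in the 2 HA-Bcl-xL libraries. D008 (chr5:69670608-69670983) had 42, 27 and 27 in control cells and 23 and 23 in the HA-Bcl-xL libraries. In both regions control replicate 1 was highest, and the HA-Bcl-xL libraries were at or under the lowest control. D010 (chr5:69635257-69635511), with no CpG in its window, had 25, 24 and 19 against 23 and 23 fragments, and the groups overlapped. Over the 16 members, 14, 11 and 12 had a peak in the 3 control libraries and 15 and 11 in the 2 HA-Bcl-xL libraries. The median fragments at those peaks were 18, 15 and 12.5 against 11 and 12, so both HA-Bcl-xL medians were under every control median, while the counts overlapped. None of these fragment numbers was scaled for depth.

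The largest group by count spanned the histone gene cluster on chromosome 6. Between chr6:26066187-28351251 there were 24 members, of which 1 had a near-identical copy and 8 were in all 5 lists. Their median GC content was 45.3%. This stretch holds the major cluster of replication-dependent histone genes and a large share of the tRNA genes of the genome. A peak was called at 20, 16 and 12 of the 24 in the 3 control libraries and at 18 and 19 in the 2 HA-Bcl-xL libraries, with median fragments of 9, 7.5 and 8.5 against 9.5 and 9. The numbers of members with a peak overlapped between the lines.

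The other groups of at least 5 members with gaps under 500 kb lay on chromosomes 1, 10, 14, 15, 16 and 19, with 5 or 6 members each. Every member of those on chromosomes 1 and 15 had near-identical copies, against 2 of 6 on chromosome 16 and 0 on chromosomes 10, 14 and 19. Between chr15:82647116-83024093 there were 6 members, whose nearest starts included those of GOLGA6L10, a golgin family gene, and of the pseudogenes CSPG4P9 and RPL9P9. There D016 (chr15:82647116-82647324) had 17, 18 and 13 against 16 and 18 fragments, and D025 (chr15:83023598-83023781) had 22, 10 and 14 against 15 and 14. Each had 6 other copies, 5 of them near an annotated start, and the lines overlapped in both. Between chr1:161426899-161582387 there were 5 members, whose nearest starts were those of HSPA6, HSPA7 and 1 lncRNA. HSPA6 encodes an inducible heat shock protein and HSPA7 is its pseudogene copy. D111 (chr1:161500557-161500853) had 11 and 6 fragments in control replicates 1 and 2 and 16 and 11 in HA-Bcl-xL cells, and D072 (chr1:161581838-161582063) had 11, 7 and 7 against 7 and 10.

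The annotation used for the 5 kb rule gives no gene on these chromosomes the type tRNA, so tRNA-like sequences were searched for in the genome by their cloverleaf pairing, a step chosen after members beside them had been noticed. The search found 370 tRNA-like sequences on chromosomes 1 to 22 and X, 117 of them on chromosome 6. One lay within 1 kb of 35 members (7.61%) and of 75 start regions (0.541%). Within 100 bp it was 12 members (2.61%) and 19 start regions (0.137%). No member overlapped such a sequence, and the median distance among the 35 was 153 bp. In the chromosome 6 group, 16 of 24 members lay within 1 kb of one.

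One such sequence is shown because the peak beside it stood in all 5 lists. D045 (chr6:27870827-27871040) begins 71 bp from a tRNA-like sequence of 70 bases on the minus strand, chr6:27870687-27870756. It is printed 5′ to 3′ on its own strand, with the conserved letters of the T loop and arm in capitals.
tRNA-like beside D045: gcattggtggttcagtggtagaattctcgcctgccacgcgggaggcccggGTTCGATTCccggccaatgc
D045 had a mean of 9.20 fragments at the summit. The tallest members of this kind were on chromosome 14, where D020 (chr14:21099607-21100069) and D085 (chr14:21100369-21100537) had means of 22.8 and 21 fragments. In 2 cases members lay on both sides of the same tRNA-like sequence. On chromosome 6, D068 (chr6:27470454-27470730) and D397 (chr6:27470951-27471267) lay on either side of one, with 8, 6 and 9 against 13 and 10 fragments in D068. D397 had 8 fragments in control replicate 1 and 6 in HA-Bcl-xL replicate 2 only. D018 (chr17:47270189-47270454), 229 bp from another, had 17, 17 and 12 against 25 and 14. Among the 35 members, 35, 29 and 16 had a peak in the 3 control libraries and 29 and 29 in the 2 HA-Bcl-xL libraries. All 35 were thus in the list of control replicate 1, and the HA-Bcl-xL counts lay within the control range.

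Some members match in sequence a promoter that another annotation holds. Promoter sequences of 35116 genes from RefSeq on GRCh38.p14 were aligned to each member and the 5 kb on either side of it. A match at 98% identity or more placed a RefSeq start within 1 kb of 23 members (5%). Genome positions were not compared, so in duplicated sequence the matched start may be that of a copy. Most of the matched genes have a locus number for a name. D035 (chr1:247289514-247289787, mean of 10.2 fragments, all 5 lists) overlapped the RefSeq start of ZNF124, a zinc finger gene, and had 1 other near-identical copy. D104 (chr14:25501607-25501870, mean of 9.75 fragments, 4 lists) overlapped that of STXBP6, which encodes a syntaxin-binding protein, and D390 (chr6:28351073-28351251, mean of 5 fragments, 2 lists) that of ZSCAN12. D215 (chr7:75268167-75268299, mean of 5.67 fragments, 3 lists) lay 262 bp from a RefSeq start of HIP1, a clathrin-binding protein. These 4 were named after their values were seen.

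A near-identical copy, a tRNA-like sequence within 1 kb or a matched RefSeq start within 1 kb applied to 117 of 460 members (25.4%) and to 37 of the 81 in all 5 lists (45.7%). The other 343 members had none of these by the limits used, and 114 of them (33.2%) were CpG-rich.

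**Figure D3:**
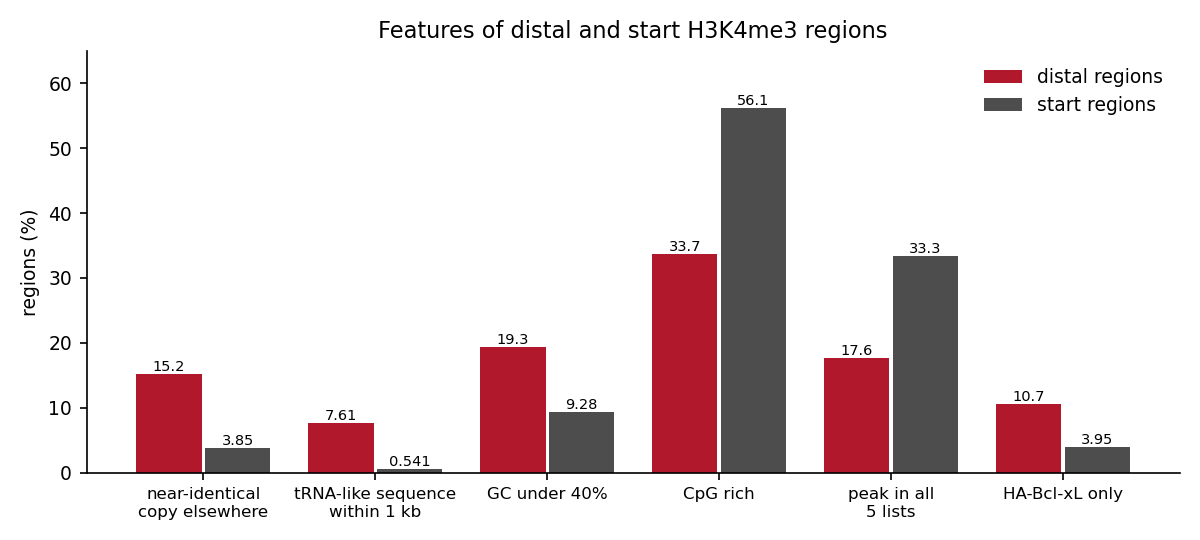
Bars give the percent of distal (red) and start regions (grey) with each feature named on the x axis, and the number above each bar is its value. Copies, tRNA-like neighbours, low GC and peaks in HA-Bcl-xL lists only had a higher share among the 460 distal regions, and CpG-rich windows and peaks in all 5 lists a higher share among the 13852 start regions.

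The 10 highest ranked members of all 5 lists were led by D001 (chr4:189972226-189972874), the tandem repeat printed above. It had 57, 49 and 36 fragments at the summit in the 3 control libraries and 45 and 44 in the 2 HA-Bcl-xL libraries. It was also the broadest, with 613, 456 and 502 bp under peaks in control cells and 535 and 610 bp in the HA-Bcl-xL libraries. The lines overlapped in both measures, and its nearest start, of the lncRNA ENSG00000250024, was 48997 bp away.

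D002 (chrX:115004652-115004876) lies in genes named for the DXZ4 macrosatellite, a tandem array known for its different chromatin on the active and inactive X chromosome. It had 43, 25 and 25 fragments in control cells and 30 and 34 in the HA-Bcl-xL libraries, and 14 other near-identical copies. None of those copies held a peak of its own. D005, an intergenic region on chromosome 7 with a CpG-rich window, had 30, 21 and 12 fragments in control cells and 26 and 28 in the HA-Bcl-xL libraries. Both HA-Bcl-xL values lay between the highest and the lowest control.

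D006 (chr1:226288279-226288491), 36601 bp from the nearest start of the histone variant gene H3-3A, had 19, 15 and 15 fragments in control cells and 23 and 19 in the HA-Bcl-xL libraries. D007 (chr7:148762272-148762469), 25341 bp from the nearest start of the zinc finger gene ZNF786, had 24, 22 and 19 against 16 and 24. D009 (chr1:228247717-228247960) touches a UTR exon of WNT3A, which encodes a Wnt ligand, and had 24, 25 and 14 against 23 and 18. D004 (chr8:145448671-145448821) had 30, 27 and 25 against 25 and 18 and 1 other copy, which lies near an annotated start. In D004 both HA-Bcl-xL libraries were at or under the lowest control, in D006 both were at or above the highest control, and in D007 and D009 the lines overlapped. These are fragment numbers without scaling for depth.

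The other broad members were D040, D052, D058 and D079. D040 (chr1:33592670-33593362) had 563, 458 and 496 bp under peaks in control cells and 601 and 287 bp in the HA-Bcl-xL libraries. D052 (chr2:191199602-191200199), in an intron of HIBCH, a gene of valine breakdown, had 598, 345 and 288 against 220 and 459 bp. D058 (chr1:249167330-249167884), 563 bp from a tRNA-like sequence, had 338, 380 and 172 against 480 and 436 bp, and both HA-Bcl-xL values were above the control range. D079 (chr6:112364370-112365037), 10241 bp from the nearest start of CCN6, had 625, 273 and 79 against 350 and 268 bp.

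Across all members, a peak was called at 338, 227 and 175 of the 460 in control replicates 1 to 3, which is 73.5, 49.3 and 38%. In HA-Bcl-xL replicates 2 and 3 it was 322 and 327, or 70 and 71.1%. Start regions had a peak in 86.4, 64.6 and 54.1% of cases in control and in 79.3 and 75.4% in HA-Bcl-xL libraries. The distal minus the start share was thus -12.9, -15.3 and -16 percentage points in control cells and -9.27 and -4.34 points in HA-Bcl-xL cells. The difference of the means, HA-Bcl-xL minus control, was 7.95 points. It is given as a description, since the rule chose members by the presence of peaks in these lists. The groups did not overlap, and without HA-Bcl-xL replicate 3 the difference was 2.67 points.

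Of the peaks in each list, 1.96, 1.92 and 1.76% lay in a distal member in control replicates 1 to 3, 1.88 ± 0.107% (SD, n = 3). In HA-Bcl-xL replicates 2 and 3 it was 2.02 and 2.17%, 2.09 ± 0.109% (SD, n = 2). The difference, likewise a description, was 0.21 percentage points. It was -0.03 without HA-Bcl-xL replicate 3 and -0.02 for regions in at least 3 lists.

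Regions with a peak in both HA-Bcl-xL and no control list made up 49 of 460 members, 10.7%. The same pattern was found for 646 of all 15223 recurrent, IgG-free regions, 4.24%, and for 547 start regions, 3.95%. Among regions in exactly 2 lists it was found for 49 of 215 members (22.8%) and 547 of 3678 start regions (14.9%). The rule needs only 2 lists, so a region seen in both HA-Bcl-xL lists alone always passes it. Whether the share at members differs from that at other regions was not tested. With the same number of top peaks taken from every list it was 17 of 259 members (6.56%) and 3.36% of start regions. With only peaks of −log10 q of at least 5 it was 22 of 254 members (8.66%) and 3.88% of start regions. Without control replicate 1, the list with the most peaks, it was 83 of 343 members. A peak then has to be absent from only 2 control lists, and the share over start regions was not computed for this setting. With regions overlapping IgG peaks kept, the count was 50.

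The median of the mean fragments of the 49 was 6, and 43 of them had at most 10. The control lists' own median at distal members was 7 or 8. CpG-rich windows were found for 11 of the 49, near-identical copies for 4 and a tRNA-like sequence within 1 kb for 0.

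The 4 highest ranked of these 49 were the tallest of all members. D246, on chromosome 7, had 277 and 252 fragments at the summit in HA-Bcl-xL replicates 2 and 3 and no peak in any control list. D247, on chromosome X, had 163 and 164, D248, on chromosome 2, had 102 and 103, and D249, on chromosome 22, had 100 and 94. No other member had a mean above the 46.2 fragments of D001. All 4 are intergenic, and their lengths are 74, 75, 76 and 75 bp. None of the 4 windows had another copy at 95% identity. That search needed most of the window to align, so a copy of the short peak alone would have been missed. Whether the peak sequences themselves have copies was thus not tested.

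Peaks of this shape were counted in every list after these had been seen, as peaks under 100 bp with at least 40 fragments. Control H3K4me3 replicates 1 to 3 held 5, 0 and 3 of them and HA-Bcl-xL replicates 2 and 3 held 15 and 17. The IgG lists held 1, 1 and 4 in control and 11, 5 and 8 in HA-Bcl-xL libraries. In IgG lists, peaks under 100 bp whose fragment number could not be solved were counted too. The H3K4me3 peaks of this shape fell into 20 merged H3K4me3 regions, and 8 of these overlapped an IgG peak. Only D246 to D249 were members. Without regions holding such a peak, an alternative chosen after seeing the data, 45 of 456 members (9.87%) had peaks in HA-Bcl-xL lists only, and the difference from start regions in the percent with a peak was 7.22 points between the lines. What these peaks stem from was not tested.

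The fifth of the set, D250 (chr15:100466522-100466699), had 15 and 14 fragments in HA-Bcl-xL replicates 2 and 3. It is intergenic, 43721 bp from the nearest start, and its summit window (chr15:100466511-100466810) had 76.3% GC and 42 CpGs. The window is shown because much of it is a CpG-dense tandem repeat, with CpGs in capitals. Shifted by 22 bases, 68.3% of its letters match themselves, and its first part does not repeat.
D250: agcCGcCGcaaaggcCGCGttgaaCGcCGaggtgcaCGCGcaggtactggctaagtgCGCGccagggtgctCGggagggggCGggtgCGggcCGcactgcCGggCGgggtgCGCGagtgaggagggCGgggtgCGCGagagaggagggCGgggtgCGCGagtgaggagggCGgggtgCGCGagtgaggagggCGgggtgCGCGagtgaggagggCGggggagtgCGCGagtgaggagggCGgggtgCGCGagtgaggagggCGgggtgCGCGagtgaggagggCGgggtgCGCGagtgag

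In the opposite direction, 3 of 460 members (0.652%) had a peak in all 3 control and no HA-Bcl-xL list, against 169 of 15223 recurrent regions (1.11%). D209 (chr2:157256987-157257140), 141 bp from a tRNA-like sequence, had 11, 8 and 9 fragments in control replicates 1 to 3. D212 (chr6:141833961-141834451) had 9, 5 and 8, and D235 (chr19:3655960-3656103), in an intron of PIP5K1C, which encodes a phosphoinositide kinase, had 5, 7 and 5. The count was 8 of 343, 15 of 404 and 28 of 429 members without control replicate 1, 2 or 3, where only 2 control lists are needed. It was 9 of 341 and 10 of 348 without HA-Bcl-xL replicate 2 or 3. The share over all recurrent regions was not computed for these settings, so these shifts cannot be read as particular to members.

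**Figure D4:**
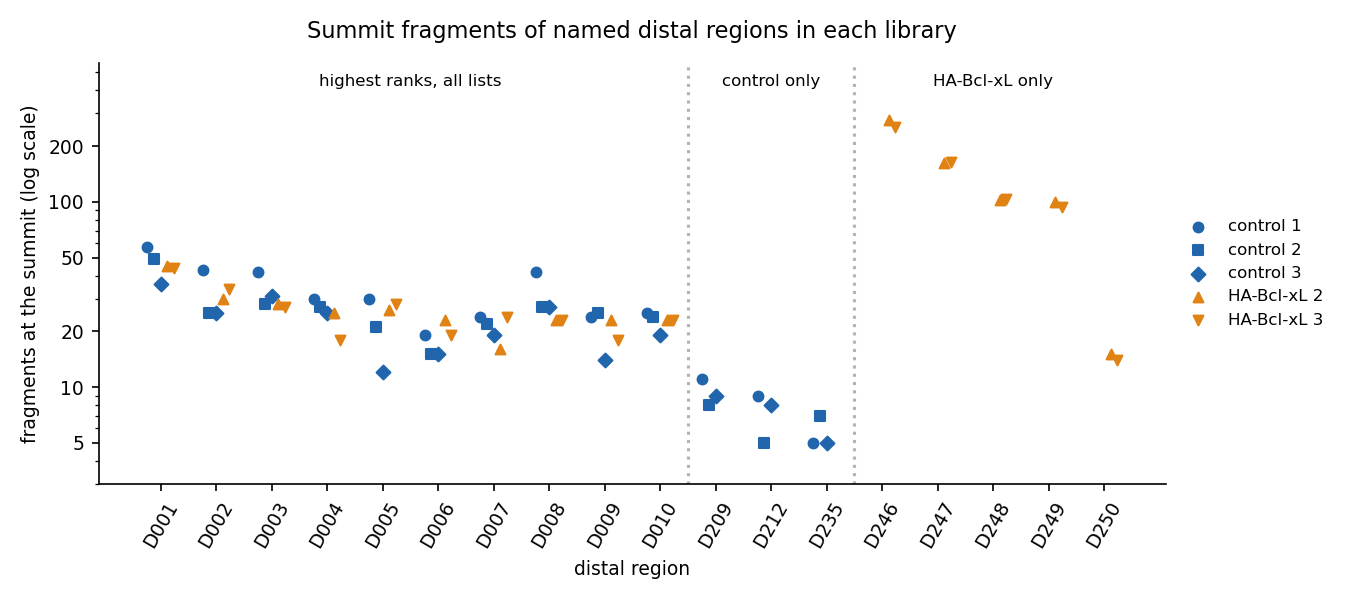
The y axis (log scale) gives the fragments at the summit in each library for the 10 highest ranked members in all 5 lists, the 3 found in control lists only and the 5 highest of those found in HA-Bcl-xL lists only. Blue symbols are control and orange symbols HA-Bcl-xL libraries, and D246 to D249 lie between 94 and 277 fragments, above every other point.

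Widths could be compared between the lines at the 81 members present in all 5 lists. With limma on log2 of the bases under peaks and Benjamini-Hochberg adjustment over 4878 regions, 0 of 81 members and 0 of all 4878 regions (0%) had an adjusted p under 0.05. At an unadjusted p under 0.05 it was 7 of 81 members (8.64%) and 263 of all regions (5.39%). The median log2 difference was 0.04 over the members and -0.02 over all regions.

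The smallest p belonged to D051 (chr7:6543431-6543870), in an intron of GRID2IP. It had 278, 440 and 226 bp under peaks in control cells and 110 and 81 bp in the HA-Bcl-xL libraries, a log2 difference of -1.73 (SE 0.34, limma adjusted p = 0.538). D065 (chr3:128336554-128336946), 9163 bp from the nearest start of RPN1, had 321, 236 and 167 against 94 and 146 bp, and D069 (chr16:22207197-22207610), 84 bp from a tRNA-like sequence, had 414, 87 and 161 against 73 and 76 bp. In these 3 regions both HA-Bcl-xL values were under every control value, and none passed the adjusted threshold.

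On the wider side, D059 (chr1:8741056-8741562), in an intron of RERE, a gene for a nuclear receptor coregulator, had 311, 113 and 85 bp in control cells and 468 and 385 bp in the HA-Bcl-xL libraries. The log2 difference was 1.51 (SE 0.43, limma adjusted p = 0.732). D038 (chr19:270565-271018) had 173, 237 and 193 against 442 and 368 bp and D055 (chr17:16438944-16439396), at a matched RefSeq start, 225, 168 and 110 against 325 and 272 bp. Again the groups did not overlap and no adjusted p was under 0.05.

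Of the 145 genes on 5 lists chosen for these cells, 8 (5.52%) had a member inside them or as the gene of its nearest protein-coding start, against 406 of all 20090 protein-coding genes (2.02%). Of 36 neuroendocrine and islet transcription factor genes, 2 had such a member. D026 (chr7:156792865-156793099) lies in an intron of MNX1, a homeobox gene of beta cell and motor neuron development, and had 12, 11 and 9 fragments in control cells and 12 and 13 in the HA-Bcl-xL libraries. Under a −log10 q of at least 5 or equal list lengths, D026 kept all 5 lists. D456 (chr6:21588081-21588218), nearest to SOX4 at 5764 bp, had 6 and 7 fragments in the HA-Bcl-xL libraries and no control peak, and lost both lists under either setting. Of 33 genes for secretory granules, prohormones and synaptic vesicles, none had a member.

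Of 34 genes of TGF-beta, activin and BMP signalling, only INHBB, which encodes an activin subunit, was nearest to a member. D141 (chr2:121070808-121070999) lay 32713 bp away and had 6, 5 and 5 fragments in control and 5 in HA-Bcl-xL replicate 3, and lost every list at a −log10 q of at least 5. Of 20 BCL2 family genes, only BAK1, a pro-apoptotic effector, was nearest to a member. D170 (chr6:33539077-33539276), 8777 bp away in an intron of GGNBP1, had 6 fragments in control replicate 2 and 7 and 7 in the HA-Bcl-xL libraries.

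Of 22 genes for H3K4 methylation writers and erasers and CtBP corepressors, 4 had a member. D092 (chr12:122250433-122250558) lies in an intron of SETD1B, the catalytic subunit of a SET1 complex, and had 8 and 6 fragments in control replicates 1 and 3 and 12 and 11 in HA-Bcl-xL libraries. D089 (chr18:47834086-47834413), 19877 bp from CXXC1, had 8 and 6 fragments in the same controls and 11 and 10 in HA-Bcl-xL libraries. In both, the HA-Bcl-xL values, not scaled for depth, were above the controls with a peak and control replicate 2 had none.

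D228 (chr5:23526982-23527355) touches coding sequence of PRDM9, a methyltransferase of meiotic cells, and had 7 fragments in control replicate 1 and 7 and 7 in HA-Bcl-xL libraries. D372 (chr5:23727427-23727595), 219709 bp from PRDM9, had 6 and 4 fragments in control replicate 1 and HA-Bcl-xL replicate 2. Both lost every list with equal list lengths. D430 (chr7:151981107-151981220), in an intron of the writer gene KMT2C, had 4 and 3 in control replicates 1 and 3, and 1 other near-identical copy. It lost both lists at a −log10 q of at least 5.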

How the data were processed

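The authors deposited 1 peak list per library in narrowPeak format, so peaks were called per library. Per the submitters' processing notes, bcl2fastq 2.20, Trimmomatic 0.36, Bowtie2 2.2.9, MACS2 2.1.1, deepTools 3.5.1 and build hg19 were used. Control, duplicate and multi-mapping settings are not given in the sources used here, and they bear on peaks in repeats. Per peak, the deposited values are a score, a fold (ratio) over background, a −log10 p and a −log10 q. Ranks are percentiles of −log10 p within a list. Fragments at the summit were solved from fold = (n + 1) / (background + 1) and a Poisson tail, to within 0.001, for 100% of H3K4me3 peaks, with a single solution for 93.1 to 95.6% per list, and this was tested on simulated peaks. Counting intervals were not computed, since copies made by PCR are not independent.

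Python 3.11.15, numpy 2.4.6, pandas 2.3.3, scipy 1.17.1, pysam 0.24.0, BLAST 2.17.0, matplotlib 3.10.9 and limma 3.58.1 in R 4.3.3 were used. Widths were the log2 of bases covered by peaks, less the library's median, tested on simulated widths. Percentages were compared by exact permutation tests. The members, gene lists and named regions were chosen with earlier results of these data known. Named by rule were the 10 highest ranked in all 5 lists and the 5 broadest. The 5 highest seen in 1 line only (3 existed for control) and 3 per direction by width p were added. So were those at listed genes and 3 on either side of 5 kb. Other regions, in the groups, beside tRNA-like sequences and at RefSeq starts, were named outside these rules. Alternatives were the distance, gene types, recurrence, IgG filter, merging, −log10 q, list length, window, centring, replicate block and each library left out. The sequences and positions of D005 and D246 to D249 are not reported here.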

Additional observations from a re-analysis of the deposited data

How the results depend on the processing

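The number of members depended on the rule: 282 at 10 kb, 1395 with protein-coding starts only, 245 with at least 3 lists, 254 at a −log10 q of at least 5 and 259 with equal list lengths, and 341 to 429 with 1 library left out. The count in HA-Bcl-xL lists only was 32, 104, 0 (by construction), 22 and 17 under the same settings in that order, and 55 to 83 with 1 control library left out. The control-only count was 5 at 2.5 kb, 1 at 10 kb and 12 with protein-coding starts only, and 8 to 28 with 1 library left out, where fewer lists are needed. With 1 HA-Bcl-xL library no HA-only count was made. Among these settings, shares over start regions were computed only for the HA-only count at a −log10 q of at least 5 and with equal list lengths. The share of peaks in members reversed to -0.0154 points with at least 3 lists and to -0.0288 without HA-Bcl-xL replicate 3, and ranged up to 0.228 with another library left out; the cause was not tested. With protein-coding starts only, the difference from start regions was 3.27 points, log2 fragments -0.299, GC -2.57 and the CpG ratio -0.0739. At 10 kb the CpG ratio was -0.188. With 1 library left out, the difference from start regions ranged from 2.67 to 11.6 points, log2 width from -0.105 to -0.0591, log2 fragments from -0.596 to -0.522, GC from -5.92 to -4.33, CpG ratio from -0.141 to -0.114 and the H3K4me3 to IgG difference from -58.2 to -56.9, and width calls stayed at 0 (with 1 HA-Bcl-xL library, limma assumes that it varies like the controls). Within replicate numbers 2 and 3, the replicate block, the share differed by 0.255 and the difference from start regions by 8.85 points, and limma with the block called 0 members. Same-numbered libraries correlated by -0.0134 and 0.0261 in their deviations. With 2 HA-Bcl-xL libraries these values say little, and no label says that a number marks a shared day or batch, so the libraries were not treated as paired. Of the 40 members named by rule, 24 kept every list at a −log10 q of at least 5 and 25 with equal list lengths. In each case 3 lost every list (D141, D430 and D456, and D228, D372 and D456). Read totals were not known, so what depth limits was not tested; the control list with the most peaks held 338 members and that with the fewest 175.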
